A study of Mus musculus with 19 samples.

Results

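The 7 genes described here encode early products of granule-forming myeloid cells: the peroxidase Mpo, the serine proteases Elane, Prtn3 and Prss57, the membrane protein Ms4a3, the lectin Fcnb and the protease inhibitor Serpinb1a. They were taken by name from a table of read counts for 50854 genes, and all 7 had reads in each of the 19 libraries. The choice was made with earlier results of these data known. The RNA was sequenced in bulk from monocytes sorted from the bone marrow of female mice aged 8 to 12 weeks. The study used REP mice, a reporter strain in which fluorescent proteins mark cells that transcribe the inflammatory chemokine receptors, with Clover standing for CCR1 and mRuby2 for CCR2. CCR1/2+ve monocytes carry both colours and CCR2+ve monocytes only the second, within a gate of CD11b+ Ly6C++ Ly6G- SiglecF- cells. Resting CCR1/2+ve and resting CCR2+ve monocytes have 4 libraries each, inflamed CCR1/2+ve monocytes 3 and inflamed CCR2+ve monocytes 4. Inflamed mice had carried a subcutaneous osmotic pump that released IL-3, IL-6, GM-CSF and IFN-α for a week. Another 4 libraries carry the title inflamed CCR1, a group about which the study's methods say nothing. A reporter colour stands for transcription of a receptor gene and not for the receptor at the cell surface. The labels do not say whether libraries came from separate mice or from pools, so the p-values below measure the spread between these libraries, which may be technical.

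Primary granules, also called azurophil granules, are the first granules that a neutrophil precursor makes, and their contents are transcribed mainly at the promyelocyte stage. Progenitors shared by neutrophils and monocytes already transcribe Mpo and Elane, and transcription falls as cells of either lineage mature, while the stored proteins remain. The proteases are made as inactive precursors, are trimmed by the dipeptidyl peptidase cathepsin C (Ctsc), are packed on the proteoglycan serglycin (Srgn), and are held in check outside the granule by serpins such as Serpinb1a.

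Levels are reads per 1e+06 counted reads (CPM) scaled by edgeR's trimmed mean of M values, TMM. The libraries held 22268658 to 30502009 reads on genes, which left the least abundant member, Prss57, with 8 to 24 reads in each inflamed CCR2+ve library. Before any result, the labelled cell type was checked against monocyte genes. The 4 inflamed CCR1 libraries stood apart: 10 monocyte core genes, such as Ly6c2 and Ccr2, summed to 2556 to 2782 CPM there and to 16245 to 38355 CPM in the other 15 libraries. Ccr2 had a mean of 5.82 CPM in the inflamed CCR1 libraries against 633 to 1251 CPM in the other groups, and Ccr1 38.0 CPM against 75.1 to 310.0 CPM. In the same libraries 12 genes of secondary granules and mature neutrophils summed to 104953 to 153555 CPM, against 841.5 to 3738 CPM elsewhere. They are therefore called here the inflamed CCR1 libraries, with no cell type, and enter only comparisons that name them.

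**Figure D1:**
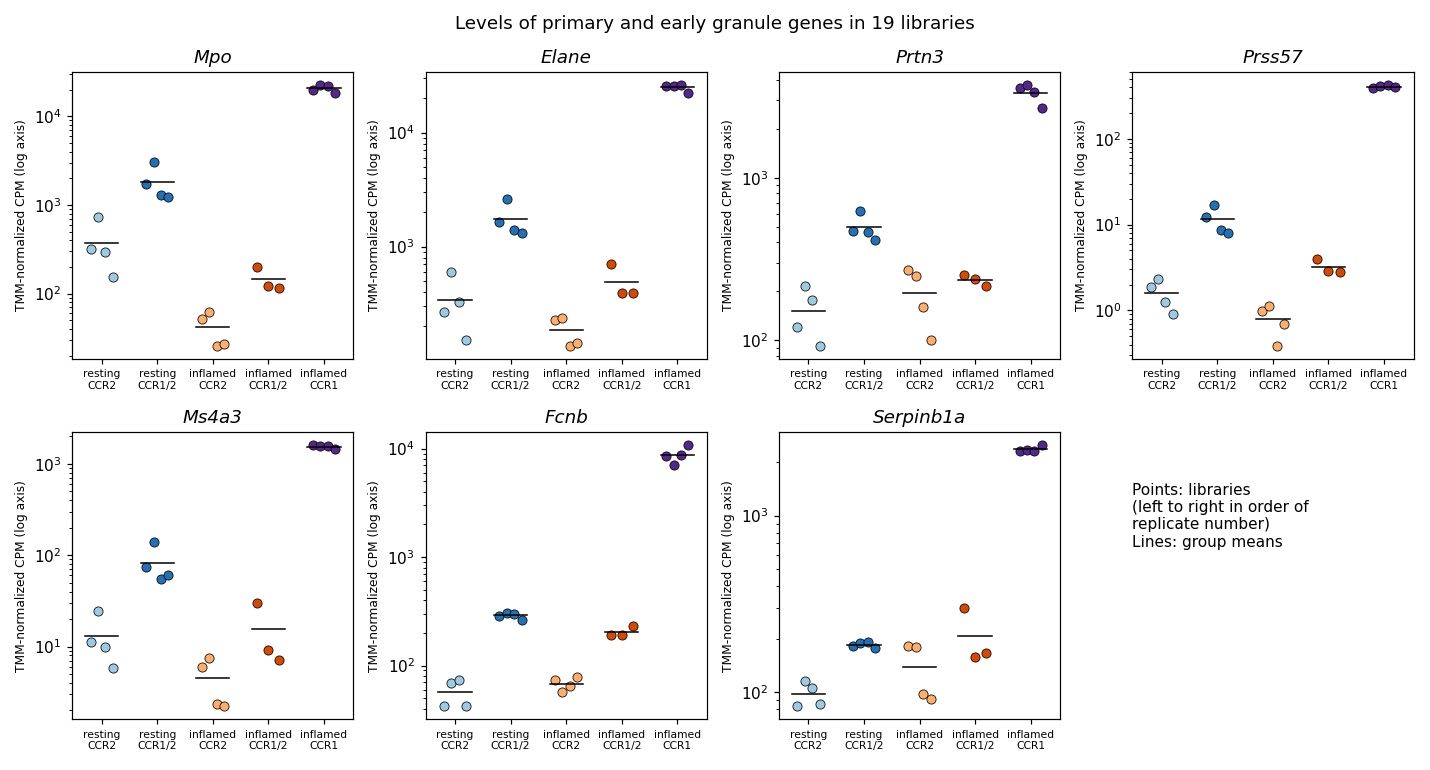
Level of each gene in each of the 19 libraries (points) with group means (lines), in TMM-normalized CPM on log axes that differ between panels, for the 5 labelled groups. The inflamed CCR1 libraries lie above every other library for all 7 genes, as 11.8% of all genes tested did, and resting CCR1/2+ve libraries lie above resting CCR2+ve libraries for all 7, as 8.2% of all genes did.

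Elane, Prtn3 and Prss57 are neighbours on mouse chromosome 10, and the other 4 genes lie on 4 other chromosomes. In GENCODE M21, which uses the authors' build GRCm38, Elane (ENSMUSG00000020125) spans chr10:79886247-79888215 on the plus strand. Prtn3 (ENSMUSG00000057729) spans chr10:79874476-79883174 on the plus strand, and 9.18% of its exonic bases are shared with Plppr3 on the minus strand. Prss57 (ENSMUSG00000020323) spans chr10:79781474-79790961 on the minus strand, and 40.7% of its exonic bases are shared with Fstl3 on the plus strand. Mpo (ENSMUSG00000009350) spans chr11:87793581-87804413 on the plus strand, with 14.95% of its exonic bases shared with the minus-strand gene Gm11505. Ms4a3 (ENSMUSG00000024681, chr19:11629496-11640851), Fcnb (ENSMUSG00000026835, chr2:28076378-28084885) and Serpinb1a (ENSMUSG00000044734, chr13:32842092-32851185) lie on the minus strand and share no exonic base with another gene. The strand that was counted is not given in the sources used here, so reads in shared bases cannot be told apart by gene.

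The promoters of the genes were read for short motifs of myeloid regulators. RefSeq (GRCm38.p6) gave an entry for 5 of the 7 genes, not including Prss57 and Serpinb1a, and the 250 bases before each start were searched on both strands for GAGGAA (a core bound by PU.1), CAACNG (MYB), TTNNGNAA (C/EBP) and TGTGGT (RUNX). The protease genes Elane and Prtn3 share an arrangement, a PU.1 core followed by a MYB core, which is shown in capitals with the stretch around it, 5′ to 3′ on the plus strand.
Elane: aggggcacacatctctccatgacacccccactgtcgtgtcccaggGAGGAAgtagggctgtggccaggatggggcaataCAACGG
Prtn3: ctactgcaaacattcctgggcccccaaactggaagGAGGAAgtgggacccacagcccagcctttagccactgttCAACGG
The Elane stretch is chr10:79886182-79886266, upstream of the RefSeq start, with its last 20 bases inside the first GENCODE exon. In Elane the PU.1 core covers bases −85 to −80 and the MYB core bases −51 to −46, counted back from the start. The Prtn3 stretch is chr10:79879537-79879616, of which the last 3 bases are in a GENCODE exon of Prtn3, and its cores cover bases −95 to −90 and −56 to −51. Of 32536 distinct mouse promoters of that length, 6.60% held a PU.1 and a MYB match, 23.4% a PU.1 match and 29.2% a MYB match. Mpo held the PU.1 core in 2 places and none of the other motifs, Ms4a3 held 1 C/EBP match, and Fcnb held 2. These are shown, again with matches in capitals, so that the promoters of the peroxidase, the progenitor gene and the lectin can be set beside those of the proteases.
Mpo: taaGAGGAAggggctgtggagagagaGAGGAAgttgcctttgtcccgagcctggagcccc
Ms4a3: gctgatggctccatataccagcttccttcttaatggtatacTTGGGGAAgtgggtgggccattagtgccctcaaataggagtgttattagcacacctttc
Fcnb: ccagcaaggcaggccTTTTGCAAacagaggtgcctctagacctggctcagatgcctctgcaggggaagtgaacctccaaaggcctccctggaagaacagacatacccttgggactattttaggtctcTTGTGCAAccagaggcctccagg
The Mpo stretch is chr11:87793534-87793593 on the plus strand, with its last 13 bases in the first GENCODE exon. The Ms4a3 stretch is chr19:11640852-11640951 and the Fcnb stretch chr2:28084979-28085128, both on the minus strand and outside the GENCODE exons of those genes. A C/EBP match is frequent, being in 36.8% of all promoters of that length, and TGTGGT, which 14.0% of them hold, was in none of these 5. Matches and their absence describe the letters of these windows and nothing about binding.

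The comparison of resting populations asked how CCR1/2+ve monocytes differ from CCR2+ve monocytes in the bone marrow of resting mice. All 7 genes were higher in resting CCR1/2+ve monocytes, and 6 of 7 passed both cutoffs, an adjusted p below 0.05 by edgeR's quasi-likelihood test and a log2 fold change of 1 or more in size. Over all 18652 genes tested, 4.25% were called in either direction and 2.34% were called higher. For all 7 genes every CCR1/2+ve library was above every CCR2+ve library, which held for 8.2% of all genes. Mpo, Elane, Ms4a3 and Fcnb are in the study's own list of neutrophil transcripts, which it chose on these resting libraries. All 7 genes were picked with earlier results of these data known, so their direction is not independent evidence. The median log2 fold change of the 7 genes was 2.43, against 0.03 for all genes tested.

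Mpo, which makes hypochlorous acid from hydrogen peroxide, was at 1706, 3084, 1289 and 1227 CPM in the 4 resting CCR1/2+ve libraries and at 318, 732, 296 and 152 CPM in the 4 resting CCR2+ve libraries. The groups did not overlap, and replicate 2 was the highest of each. The change was called (log2 fold change 2.36, SE 0.55, adjusted p = 0.0238). It was no longer called without CCR1/2+ve replicate 1 (adjusted p = 0.0529) or 2 (0.0683) or without CCR2+ve replicate 3 (0.0822), nor without the filter on low counts (0.0583). With the replicate numbers as a block, which pair these libraries, it was called with an adjusted p of 0.000489.

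The proteases followed the same order. Elane, neutrophil elastase, was at 1637, 2635, 1391 and 1324 CPM in CCR1/2+ve libraries and 266, 601, 329 and 152 CPM in CCR2+ve libraries (log2 fold change 2.45, SE 0.45, adjusted p = 0.00781). Prtn3, proteinase 3, was at 472, 627, 464 and 416 CPM and 121, 217, 177 and 92.7 CPM (log2 fold change 1.78, SE 0.27, adjusted p = 0.00197). Again no CCR2+ve library reached the level of a CCR1/2+ve library, and replicate 2 was the highest in each group for both genes. Prss57, also named neutrophil serine protease 4 and a cleaver of bonds after arginine, was scarce at 12.1, 17.1, 8.66 and 8.04 CPM in CCR1/2+ve libraries and 1.89, 2.32, 1.25 and 0.914 CPM in CCR2+ve libraries. Its fold change was the largest of the 7 (log2 fold change 2.92, SE 0.33, adjusted p = 0.000121).

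Ms4a3 and Fcnb were also called higher. Ms4a3, whose transcription marks progenitors of granulocytes and monocytes, was at 73.8, 138, 54.8 and 60.9 CPM in CCR1/2+ve libraries against 11.3, 24.8, 9.84 and 5.82 CPM in CCR2+ve libraries (log2 fold change 2.74, SE 0.50, adjusted p = 0.00813). Fcnb, ficolin B, a lectin that can start the complement cascade, had the smallest standard error of the called genes and was at 288, 307, 298 and 263 CPM against 42.5, 68.4, 73 and 42.3 CPM (log2 fold change 2.43, SE 0.17, adjusted p = 1.58e-05). For both genes the groups were fully separate. Serpinb1a, an inhibitor of elastase, proteinase 3 and cathepsin G, was at 183, 189, 192 and 179 CPM against 83.5, 116, 106 and 86 CPM, and its log2 fold change of 0.999 (SE 0.11, adjusted p = 9.93e-05) fell just under the fold cutoff. With the block its log2 fold change was 1.01 and all 7 genes were called. The inhibitor had the smallest ratio of group means of the 7 genes, 1.9, against 5.18 for Elane and 7.21 for Prss57, and this difference between genes was not tested.

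In bulk RNA, fewer cells that transcribe a gene and less of its RNA per cell cannot be told apart. Markers of other states moved with the same comparison. The 12 genes of secondary granules and mature neutrophils summed to 2634 to 3288 CPM in resting CCR1/2+ve libraries and to 841.5 to 1146 CPM in CCR2+ve libraries. Of the 12, 5 were called higher, the granule genes Lcn2 and Mmp9 with Cxcr2, S100a8 and S100a9, and 0 were called lower. The granule genes Ltf, at a mean of 3.21 CPM against 6.69 CPM, and Camp, at 16.2 against 9.31 CPM, were low and not called. The summed level of 15 proliferation genes was 4120 to 5198 CPM against 2276 to 2895 CPM, and 6 of 14 tested were called higher. Of 7 tested stem and progenitor genes, Kit, a receptor of progenitors, was called higher at a mean of 3.42 CPM against 0.80 CPM and 2 were called lower, Flt3 and Meis1, and the list summed to 23.4 to 37.6 CPM against 44.7 to 79.4 CPM. Of 7 tissue macrophage genes 4 were called higher, Vcam1, C1qa, C1qb and C1qc, while the list summed to 210.0 to 289 CPM against 264 to 385 CPM. Dendritic cell genes summed to 14.97 to 31.9 CPM against 94.4 to 164 CPM, with 3 of 6 called lower, Siglech, Cd209a and Flt3. T and NK cell genes summed to 0.37 to 1.05 CPM against 2.89 to 3.90 CPM, with 3 of 6 called lower. Cd79a of the B cell genes and Siglecf of the eosinophil genes were called higher. The study's single-cell sequencing of CCR1/2+ve monocytes reported Elane in S and G2M phase but not in G1, and no neutrophils. It held no CCR2+ve monocytes, so it does not compare the populations. Whether these markers have a part in the higher granule genes was not tested here.

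Genes that process, pack or otherwise accompany the granule proteins were read from 4 lists, of which 4 genes, Bpi, Serpinb1c, Ctsg and Cebpe, gave no test. Bpi and Serpinb1c had 0 reads in all 19 libraries, and Ctsg and Cebpe are not analysed here. Of 9 genes for processing and packing, Cst7 (cystatin F, an inhibitor of cathepsin C; log2 fold change 1.75, SE 0.34, adjusted p = 0.00523) and Cd63 (a granule membrane tetraspanin; log2 fold change 2.72, SE 0.44, adjusted p = 0.0026) were called higher in resting CCR1/2+ve monocytes. Cathepsin C itself was not called, at a log2 fold change of −0.32 (adjusted p = 0.125), nor was Srgn at 0.08 (0.697). Of 5 tested granule contents outside the 7 genes, 1 was called, the lysozyme gene Lyz1, and it was lower (log2 fold change −1.61, SE 0.25, adjusted p = 0.00107). Of 5 tested inhibitors, none was called, and Slpi, a secreted inhibitor of elastase, was at 0.42 (adjusted p = 0.0481).

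Of 9 tested transcription factors of the myeloid lineage, Myb, a factor of progenitors, was called higher (log2 fold change 1.02, SE 0.27, adjusted p = 0.0213) and Cebpb, a factor of mature monocytes, lower (log2 fold change −1.33, SE 0.20, adjusted p = 0.000765). Irf8, which directs progenitors to the monocyte fate, differed by 0.16 (adjusted p = 0.233) and Cebpa, which primary granule genes require, by −0.74 (0.015), neither past both cutoffs. Gfi1, a repressor that favours the neutrophil fate, had 1 to 29 reads in the CCR1/2+ve libraries and 0 to 3 in the CCR2+ve libraries and was not called (adjusted p = 0.0603).

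**Figure D2:**
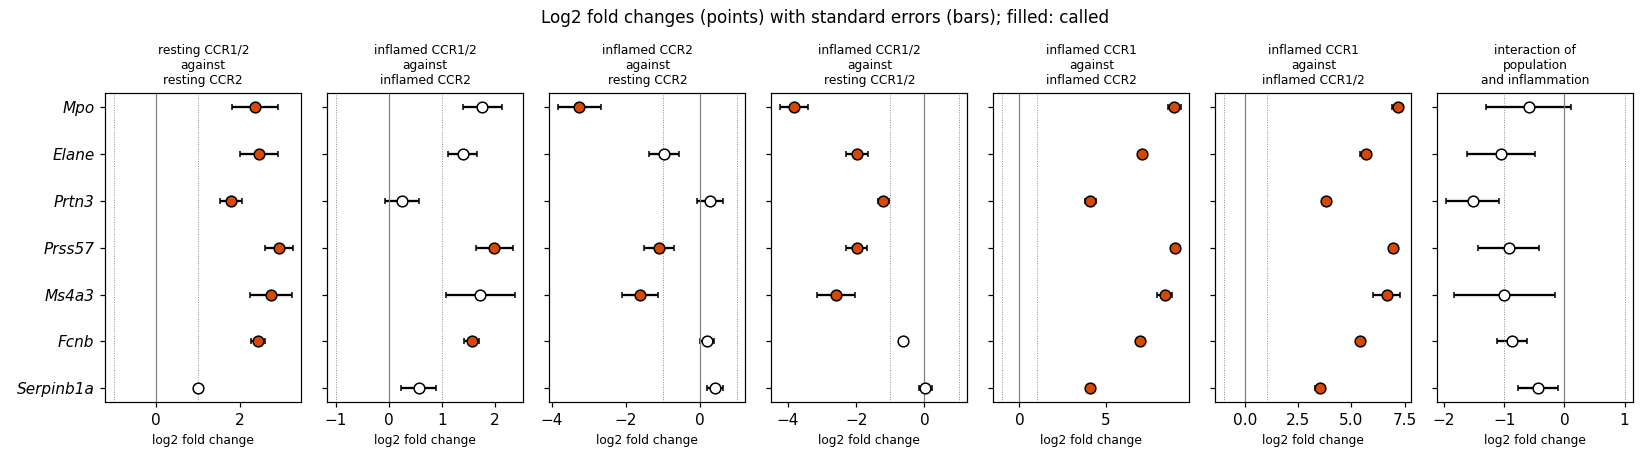
Log2 fold change (points) and standard error (bars) of each gene in 6 comparisons of groups and in the interaction of population and inflammation. Filled points passed both cutoffs, dotted lines mark the fold cutoff, and the scale differs between panels. All 7 genes are to the right of 0 wherever CCR1/2+ve is set against CCR2+ve, and filled in both panels for the inflamed CCR1 libraries.

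The same populations were compared in inflamed mice. All 7 genes had a higher mean in inflamed CCR1/2+ve monocytes, but 2 of 7 were called, Fcnb (log2 fold change 1.57, SE 0.14, adjusted p = 0.000347) and Prss57 (log2 fold change 2.00, SE 0.36, adjusted p = 0.0468), where 0.145% of all genes tested were called and 0.102% were called higher. Fcnb was at 189, 193 and 231 CPM in the 3 inflamed CCR1/2+ve libraries and at 73.7, 56.5, 64.2 and 78.2 CPM in the 4 inflamed CCR2+ve libraries. Prss57 was at 3.97, 2.9 and 2.81 CPM against 0.974, 1.12, 0.387 and 0.689 CPM. In this comparison 4 of the 7 genes, these and Mpo and Elane, had no overlap between the groups, which held in the same direction for 5.51% of all genes. The Fcnb call held without each library, whereas the call of Prss57 was lost when any 1 of the 7 libraries was left out (adjusted p from 0.0501 to 0.174).

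Mpo was at 198, 122 and 114 CPM in inflamed CCR1/2+ve libraries and 52.1, 62.7, 25.8 and 27.1 CPM in inflamed CCR2+ve libraries (log2 fold change 1.77, SE 0.37, adjusted p = 0.187). Elane was at 697, 390.3 and 392 CPM and 225, 234, 135 and 143 CPM (log2 fold change 1.40, SE 0.27, adjusted p = 0.151). Neither gene overlapped between the groups, and neither passed the adjusted cutoff, at unadjusted p-values of 0.00188 and 0.000979. DESeq2 called both, and their adjusted p ranged from 5.65e-06 to 0.471 for Mpo and from 3.53e-06 to 0.283 for Elane over the alternatives run. The study, which used DESeq2, lists Mpo, Elane and Fcnb as raised in inflamed CCR1/2+ve monocytes too. The direction of these genes here is therefore not independent evidence. Ms4a3 was not called at 29.8, 9.15 and 7.2 CPM against 5.93, 7.58, 2.37 and 2.24 CPM (log2 fold change 1.73, SE 0.65, adjusted p = 0.494), with CCR1/2+ve replicate 2 far above the other 6 libraries, whose values overlapped. Without that library its log2 fold change was 0.84. Prtn3, at 253, 240.0 and 215 CPM against 273, 249.7, 161 and 100.4 CPM, and Serpinb1a, at 298, 158 and 166 CPM against 183, 179.7, 98.1 and 91.4 CPM, overlapped between the groups and had log2 fold changes of 0.25 (adjusted p = 0.863) and 0.56 (0.683). None of the 28 tested genes of the 4 accompanying lists was called in this comparison by edgeR. Among markers, Ngp and Camp, contents of secondary granules, were called higher in inflamed CCR1/2+ve libraries, at means of 328 against 134 CPM and 49.7 against 18.3 CPM, and their part in the result was not tested.

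The second question was how each population differed between inflamed and resting mice. The labels do not say whether resting mice carried a vehicle pump. Nor do they say whether resting and inflamed libraries were prepared and sequenced together. The cytokines, the pump, other differences between the mice and any difference in library handling therefore cannot be told apart. Mpo fell most. In CCR2+ve monocytes it went from a mean of 375 ± 249 CPM (SD, n = 4) to 41.9 ± 18.4 CPM (SD, n = 4) (log2 fold change −3.25, SE 0.57, adjusted p = 0.00233), and in CCR1/2+ve monocytes from 1827 ± 865 CPM (SD, n = 4) to 145 ± 46 CPM (SD, n = 3) (log2 fold change −3.81, SE 0.42, adjusted p = 6.22e-05). By the values per library given above, no inflamed library reached a resting library of the same population. Elane fell in CCR1/2+ve monocytes, from 1747 ± 607 CPM (SD, n = 4) to 493 ± 177 CPM (SD, n = 3) (log2 fold change −1.98, SE 0.32, adjusted p = 0.000825), while in CCR2+ve monocytes, at 337 ± 190.4 CPM (SD, n = 4) and 184 ± 52.3 CPM (SD, n = 4), the groups overlapped and the change was not called (log2 fold change −0.96, SE 0.41, adjusted p = 0.0851). Without resting CCR2+ve replicate 4, the lowest resting library, it was called at a log2 fold change of −1.12 (adjusted p = 0.0134).

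In CCR1/2+ve monocytes 5 of 7 genes were called lower under inflammation, where 28.5% of all genes tested were called and 19.4% were called lower. Besides Mpo and Elane these were Ms4a3 (log2 fold change −2.58, SE 0.56, adjusted p = 0.00441), Prss57 (log2 fold change −1.98, SE 0.31, adjusted p = 0.000277) and Prtn3 (log2 fold change −1.21, SE 0.16, adjusted p = 7.94e-05). Fcnb went from 289 ± 18.9 CPM (SD, n = 4) to 204 ± 22.9 CPM (SD, n = 3), with an adjusted p of 0.000716 and a log2 fold change of −0.63 that missed the fold cutoff, though its libraries were separate. Serpinb1a was not called, at 186 ± 6.09 CPM (SD, n = 4) and 207 ± 78.5 CPM (SD, n = 3) (log2 fold change 0.02, SE 0.19, adjusted p = 0.947), and its sign turned in some alternatives, among them leaving out inflamed replicate 2, without which the log2 fold change was −0.31 (adjusted p = 0.0191). All genes tested had a median log2 fold change of −0.25 here, and −0.06 with upper-quartile scaling, so a fold change near that size is not set apart from the whole.

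In CCR2+ve monocytes 3 of 7 were called lower, where 28.6% of all genes were called and 19.2% were called lower. They were Mpo, Ms4a3 (log2 fold change −1.61, SE 0.50, adjusted p = 0.0209) and Prss57 (log2 fold change −1.09, SE 0.41, adjusted p = 0.0403), of which Ms4a3 and Prss57 overlapped between the groups. The calls of the last 2 rested on single libraries: Ms4a3 lost its call without resting CCR2+ve replicate 1 (adjusted p = 0.0501) or 2 (0.0621) or inflamed CCR2+ve replicate 4 (0.0870), and Prss57 without any of 5 of the 8 libraries, resting replicates 1, 2 and 3 and inflamed replicates 3 and 4 (0.0563 to 0.171). With upper-quartile scaling Prss57 was not called either, at −0.88 (adjusted p = 0.0974). Prtn3 (log2 fold change 0.28, SE 0.34, adjusted p = 0.544), Fcnb (log2 fold change 0.20, SE 0.18, adjusted p = 0.403) and Serpinb1a (log2 fold change 0.41, SE 0.21, adjusted p = 0.122) had higher means in the inflamed libraries, overlapped with the resting libraries and were not called.

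The interaction of population and inflammation asked whether the difference between the populations changed with inflammation. It was negative for all 7 genes, that is, the estimated difference was smaller in inflamed mice, and none of the 7 was called, where 0.214% of all genes were called. Prtn3 had the largest value (log2 fold change −1.53, SE 0.44, adjusted p = 0.156), followed by Elane (log2 fold change −1.05, SE 0.57, adjusted p = 0.464), and Fcnb had the smallest adjusted p (log2 fold change −0.87, SE 0.24, adjusted p = 0.12). Unadjusted p-values were under 0.05 for Prtn3 (0.00365) and Fcnb (0.00213). DESeq2 called 1 of 7, Prtn3, at −1.47 (adjusted p = 0.0112). By edgeR, Ms4a3 was called with the replicate block at −1.15 (adjusted p = 0.0397), and Prtn3 was called without replicate 4 of the inflamed CCR2+ve group at −1.74 (adjusted p = 0.0427). A negative sign was not particular to these genes. The interaction was negative for all 14 tested proliferation genes (median −0.60), and its median over all genes tested was −0.10.

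Of 9 myeloid transcription factors, 8 were called lower with inflammation in CCR2+ve monocytes and 6 in the CCR1/2+ve population, and none was called higher. Spi1, which encodes PU.1, had a log2 fold change of −4.34 in CCR2+ve (adjusted p = 2.95e-12) and −4.18 in CCR1/2+ve monocytes (1.45e-09), to means of 38.1 and 33.9 CPM. Myb (−2.85 and −3.60), Irf8 (−2.54 and −2.80), Cebpb (−3.17 and −2.19), Cebpa (−2.24 and −1.98) and Runx1 (−1.28 and −1.71) were called lower in CCR2+ve and CCR1/2+ve monocytes in that order. Cbfb, the partner of Runx1 (log2 fold change −1.40, SE 0.12, adjusted p = 2.23e-07), and Gfi1b, a repressor of blood progenitors (log2 fold change −1.26, SE 0.48, adjusted p = 0.0428), were called in CCR2+ve monocytes alone, and that difference between the populations was not past the cutoffs in the interaction.

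Ctsc, the enzyme that activates the proteases, was called higher in CCR2+ve monocytes (log2 fold change 1.75, SE 0.12, adjusted p = 1.76e-08) and in those with both colours (log2 fold change 2.33, SE 0.12, adjusted p = 2.64e-08), to means of 8965 and 10572 CPM. Also called higher in both were Unc13d, which primes granules for release (1.68 and 1.84), and the lysosomal protease gene Ctsd (1.58 and 1.53). Man2b1, a lysosomal mannosidase, was called higher in CCR1/2+ve monocytes (1.20, against 0.87 in CCR2+ve monocytes). Serpinb10 was called lower in CCR2+ve and CCR1/2+ve monocytes (−1.53 and −1.01), Lyz1 in CCR2+ve (−1.75, against −0.34) and Cst7 in CCR1/2+ve monocytes (−1.65, against −0.35). Markers of other cells also moved with inflammation, some higher and some lower. The 12 genes of secondary granules and mature neutrophils summed to 1721 to 2050 CPM in inflamed CCR2+ve against 841.5 to 1146 CPM in resting CCR2+ve libraries, with 6 called higher. In CCR1/2+ve monocytes the ranges overlapped, 3048 to 3738 CPM against 2634 to 3288 CPM, with 6 called higher and 2 lower, S100a8 and S100a9. All 5 basophil and mast cell genes were called higher in both populations, and they summed to 105.4 to 239 CPM in the 7 inflamed CCR1/2+ve and CCR2+ve libraries against 0 to 19.4 CPM in the 8 resting ones. Erythroid genes summed to 1.55 to 4.23 CPM in inflamed CCR2+ve against 94.4 to 297 CPM in resting CCR2+ve libraries (8 of 8 called lower), and to 1.65 to 3.56 CPM against 58.4 to 180.2 CPM in CCR1/2+ve libraries (7 of 8 lower). Stem and progenitor genes summed to 14.9 to 16.4 CPM against 44.7 to 79.4 CPM in CCR2+ve libraries (4 of 7 lower, Gata2 higher) and to 9.92 to 12.1 CPM against 23.4 to 37.6 CPM in CCR1/2+ve libraries (3 of 7 lower). Dendritic cell genes summed to 5.62 to 15.5 CPM against 94.4 to 164 CPM and to 4.46 to 5.53 CPM against 14.97 to 31.9 CPM, with 4 of 6 called lower and Itgax higher in each population. Their part in these results was not tested.

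The balance of Mpo and Elane differed between resting and inflamed monocytes. Per kilobase of exon, Elane was 2.85 to 3.88 times as abundant as Mpo in the 8 resting libraries of both populations. In inflamed CCR1/2+ve libraries the ratio per kilobase was 11.1 to 12.3, and in inflamed CCR2+ve libraries 13.0 to 18.4. The resting and inflamed ranges did not overlap in either population, whereas the inflamed CCR1 libraries had ratios of 3.91 to 4.50, just above the resting range. This ratio was chosen after its values were seen and was not tested.

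The other ratios ordered the groups differently. Prtn3 over Elane per kilobase was lowest in the inflamed CCR1 libraries (0.0687 to 0.0828), higher in resting CCR1/2+ve libraries (0.135 to 0.190) and highest in inflamed CCR2+ve libraries (0.399 to 0.690), while resting CCR2+ve (0.206 to 0.346) and inflamed CCR1/2+ve libraries (0.206 to 0.349) overlapped. Serpinb1a over the summed serine proteases Elane, Prtn3 and Prss57 was 0.0270 to 0.0495 in resting CCR1/2+ve and 0.0349 to 0.0451 in inflamed CCR1 libraries, which overlapped. It was higher in resting CCR2+ve (0.0684 to 0.179), inflamed CCR1/2+ve (0.128 to 0.151) and inflamed CCR2+ve libraries (0.185 to 0.206). The ratio was lowest in the groups that held most protease transcript, but the protease sum is its denominator. Low values there are partly built in and are no result about the inhibitor. Serpinb1a itself was highest in the inflamed CCR1 libraries, at a mean of 2377 CPM.

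**Figure D3:**
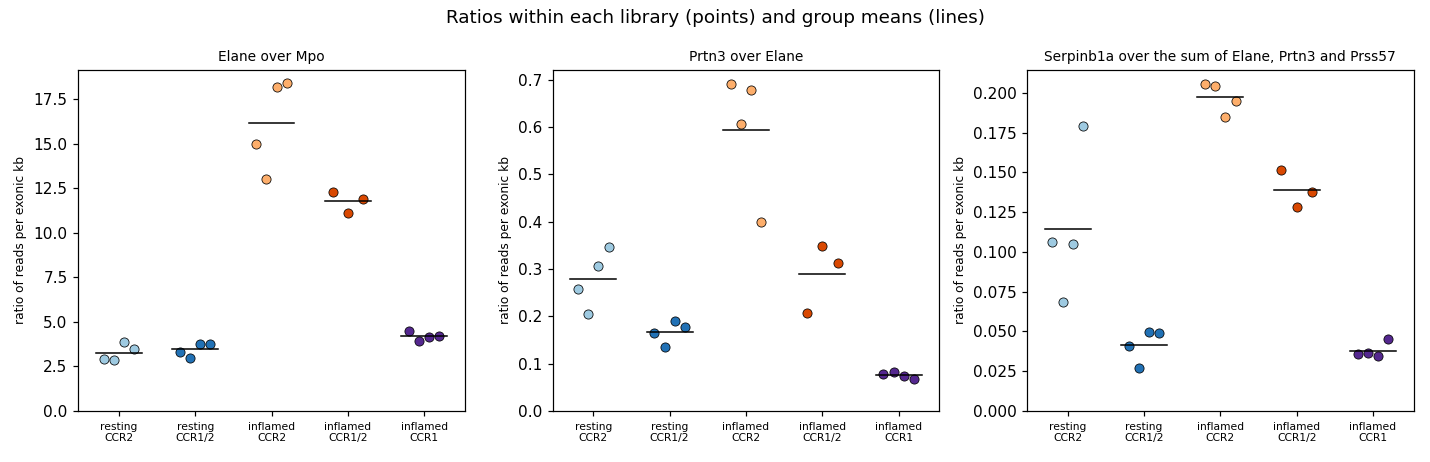
Ratios of reads per exonic kilobase within each library (points) and their group means (lines) for Elane over Mpo, Prtn3 over Elane, and Serpinb1a over the summed proteases, on axes that start at 0. Elane over Mpo is 2.85 to 3.88 in the 8 resting libraries and at least 11.1 in the 7 inflamed CCR1/2+ve and CCR2+ve libraries.

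The inflamed CCR1 libraries held these transcripts at another order of abundance. The 7 genes together took 5.25% to 6.21% of all reads on genes there, against 0.37% to 0.888% in resting CCR1/2+ve, 0.0522% to 0.198% in resting CCR2+ve, 0.100% to 0.153% in inflamed CCR1/2+ve and 0.0438% to 0.0756% in inflamed CCR2+ve libraries. By mean CPM Elane ranked 2, Mpo 3 and Fcnb 8 among the 21193 genes with reads in the inflamed CCR1 libraries. All 7 genes were called higher against inflamed CCR2+ve libraries, where 31.3% of all genes tested were called and 14.4% were called higher, and all 7 against inflamed CCR1/2+ve libraries, where the shares were 27.7% and 13.2%. No library overlapped for any of the 7, in common with 21.2% and 22.2% of all genes in that direction. These comparisons share the inflamed CCR1 libraries. They set cells that lack most monocyte transcripts beside monocytes.

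Mpo was at 19959, 22685, 22052 and 18225 CPM in the 4 inflamed CCR1 libraries, which gave a log2 fold change of 8.96 (SE 0.37, adjusted p = 1.74e-08) against inflamed CCR2+ve and 7.17 against inflamed CCR1/2+ve libraries. Elane was at 25799, 25502, 26198 and 22049 CPM (log2 fold change 7.09, SE 0.21, adjusted p = 4.39e-13 against inflamed CCR2+ve libraries). The 4 libraries agreed closely for both genes, with replicate 4 the lowest. Prss57, at 387, 412, 423 and 399 CPM (log2 fold change 8.99, SE 0.20, adjusted p = 1.96e-15), and Ms4a3, at 1595, 1559, 1570.3 and 1432 CPM (log2 fold change 8.42, SE 0.42, adjusted p = 2.12e-07), had fold changes near that of Mpo.

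Fcnb was at 8603, 7123, 8648 and 10745 CPM (log2 fold change 7.01, SE 0.17, adjusted p = 5.49e-15), with replicate 4 the highest where it was lowest for Elane and Mpo. Prtn3, at 3541, 3719, 3380.4 and 2666 CPM, and Serpinb1a, at 2334, 2362, 2308 and 2504 CPM, had smaller fold changes of 4.10 (SE 0.31, adjusted p = 3.48e-06) and 4.12 (SE 0.23, adjusted p = 1.03e-08). For each of the 7 genes the lowest inflamed CCR1 library was above the highest of the other 15 libraries, as for 11.8% of all genes tested, and all 7 were called in both comparisons under every alternative run.

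Of 9 processing and packing genes, 4 were called higher in the inflamed CCR1 libraries, 1 was called lower and 4 were not called. Cd63 (log2 fold change 8.57, SE 0.18, adjusted p = 1.71e-15), Cst7 (log2 fold change 5.16, SE 0.21, adjusted p = 2.46e-11), Srgn (log2 fold change 1.93, SE 0.11, adjusted p = 2.64e-10) and Unc13d (log2 fold change 1.28, SE 0.16, adjusted p = 3.98e-06) were called higher against inflamed CCR2+ve libraries. Ctsc was called lower (log2 fold change −5.38, SE 0.28, adjusted p = 4.23e-08), at a mean of 214 CPM against 8965 CPM. Of 5 other granule contents 4 were called lower, Lyz2 (−2.13), Lyz1 (−2.18), Ctsd (−1.12) and Man2b1 (−1.06). Of the inhibitors, Serpinb6a, an inhibitor of cathepsin G, was called higher (2.36) and Serpinb9, an inhibitor of granzyme B, lower (−1.62). Against inflamed CCR1/2+ve libraries Slpi was also called lower (log2 fold change −1.25, SE 0.11, adjusted p = 4.28e-07).

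Among the factors, Myb was called higher against inflamed CCR2+ve libraries (log2 fold change 5.90, SE 0.18, adjusted p = 7.55e-14) and Irf8 (log2 fold change −3.05, SE 0.26, adjusted p = 7.47e-07) and Cebpb (log2 fold change −2.03, SE 0.25, adjusted p = 3.6e-06) lower. Gfi1 was called higher, with 421 to 570 reads in each inflamed CCR1 library against 0 in each of the 4 inflamed CCR2+ve libraries, so no fold is given. Spi1, at a mean of 24.2 CPM, was lower than in inflamed CCR2+ve monocytes at 38.1 CPM (log2 fold change −0.65, SE 0.12, adjusted p = 0.000165) and did not reach the fold cutoff. Secondary granule transcripts were the most abundant of the markers, Ngp at a mean of 86027 CPM and Camp at 19963 CPM. Of the 12 genes of that list, 10 were called higher against inflamed CCR2+ve and 9 against inflamed CCR1/2+ve libraries. In both comparisons 1, Mmp8, was called lower, and Csf3r was not called. Of 7 tested stem and progenitor genes, Kit, at a mean of 160 CPM, and Hlf were called higher and Flt3 and Meis1 lower in both comparisons, and the list summed to 149 to 203 CPM against 14.9 to 16.4 CPM in inflamed CCR2+ve libraries. All 4 tested eosinophil genes, Epx, Prg2, Prg3 and Siglecf, were called higher, and their list summed to 39.3 to 89.1 CPM against 1.72 to 3.53 CPM. Dendritic cell genes, with 4 of 6 called lower, summed to 0.99 to 1.51 CPM against 5.62 to 15.5 CPM. Ly6g had 266 to 372 reads per library. The summed proliferation genes were 7478 to 7950 CPM, against 2276 to 5198 CPM in the other 15 libraries. Their part in the levels of the 7 genes was not tested.

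Within groups, the levels of the genes other than Fcnb varied together from library to library. Over the 19 libraries, each pair's deviations from the group means in log2 CPM had a Pearson r of 0.97 for Mpo with Elane, 0.93 for Mpo with Ms4a3, 0.92 for Elane with Ms4a3 and 0.82 for Elane with Prtn3. For Fcnb with each of the other 6 genes r was 0.06 to 0.35. Serpinb1a had 0.59 to 0.83 with the 5 genes other than Fcnb. The values of a pair share their library and its depth, and r is given as a description.

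Genes were ranked by likeness to Elane in log2 CPM over the 19 libraries. The 8595 genes ranked had a mean of at least 10 CPM in 1 group or more. Outside the 7, the most alike were Cst7 (Pearson r 0.99), Adgrg3 (0.99), Nkg7 (0.98), Cdca7 (0.98) and Klhl23 (0.98). Klhl23 entered only through the inflamed CCR1 libraries, where its mean was 58.3 CPM. The members Prss57 and Ms4a3 had 0.99, and Serpinb1a the lowest of the 7 with 0.94. Nkg7, a granule membrane protein known from killer cells, had means of 1562 CPM in the inflamed CCR1 libraries, 48.4 CPM in resting CCR1/2+ve and 8.33 CPM in resting CCR2+ve libraries, and 5.48 and 2.49 CPM in inflamed CCR1/2+ve and CCR2+ve libraries. Adgrg3, an adhesion receptor of granulocytes, had 562, 17.2, 4.13, 3.18 and 1.58 CPM in the same order. Over the 15 libraries without inflamed CCR1, r was 0.95 for Cst7, 0.94 for Adgrg3 and 0.92 for Nkg7, which then ranked 10, 17 and 24 by r.

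Within 100 kb of Elane on chromosome 10, the called genes of the resting comparison were the 3 protease genes Elane, Prtn3 and Prss57. Of 15 other tested genes that lie within 100 kb of Elane, 0 were called in the resting comparison, and their median log2 fold change was −0.00. At an adjusted p below 0.05 alone 1 of them passed, Plppr3, a gene of the nervous system that shares exonic bases with Prtn3 (log2 fold change 0.84, SE 0.16, adjusted p = 0.00327). On its left Elane is followed, beyond Prtn3 and Plppr3, by the splicing factor gene Ptbp1 (log2 fold change 0.01, SE 0.11, adjusted p = 0.99). On its right lie Gm19810, 497 bases away (log2 fold change −0.00, SE 0.36, adjusted p = 1), and Cfd, which had 3 reads in all resting CCR1/2+ve and 1 in all resting CCR2+ve libraries. Prss57, 95286 bases away and with genes between that were not called, had the largest change of the stretch. In the inflamed CCR1 libraries against inflamed CCR2+ve libraries 6 of the 15 neighbours were called higher and 0 lower.

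**Figure D4:**
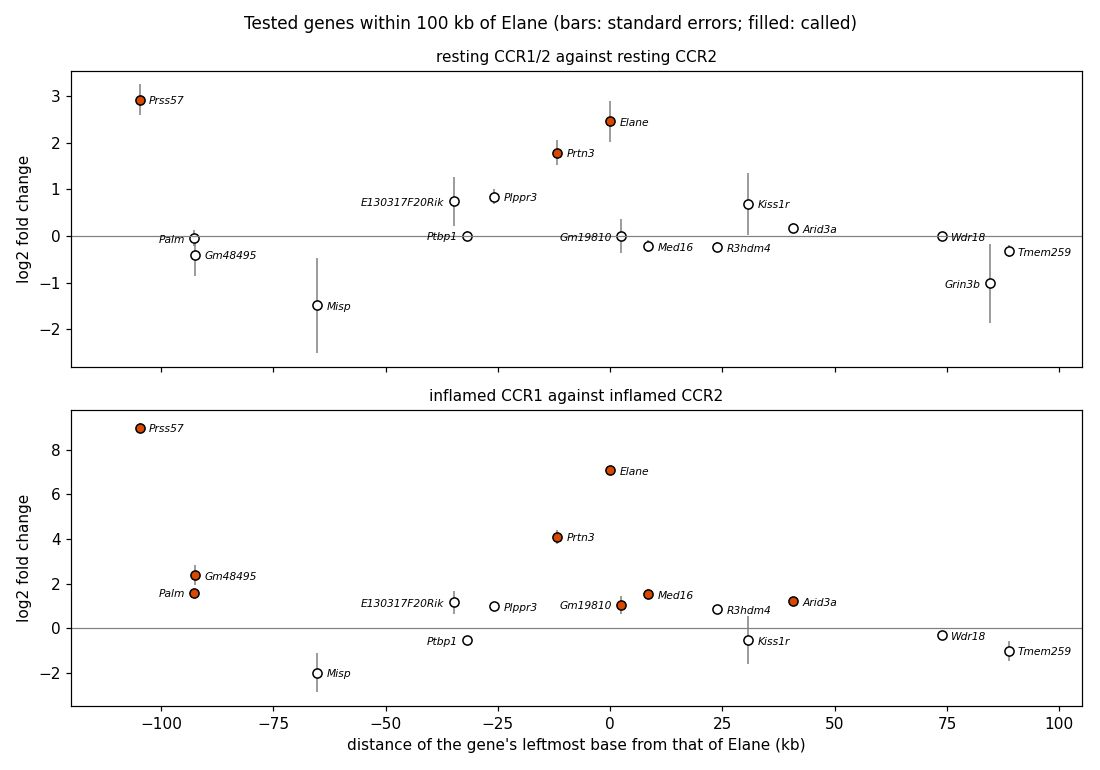
Log2 fold change (points) and standard error (bars) of the tested genes within 100 kb of Elane, by the distance of each gene's leftmost base from that of Elane in kilobases, for resting CCR1/2+ve against resting CCR2+ve (top) and inflamed CCR1 against inflamed CCR2+ve libraries (bottom). Genes with 3 or fewer reads in a group are left out and filled points passed both cutoffs. At the top the filled points are Elane, Prtn3 and Prss57.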

How the data were processed

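Bone marrow monocytes were sorted, and low-input mRNA libraries were sequenced as paired ends. The authors assessed reads with fastp, aligned them to GRCm38 with STAR 2.7.10a, keeping reads placed once, and counted them per Ensembl gene. The deposited values are raw read counts of 50854 genes. Of the 20 columns, 19 were mapped to samples by their names and 1, which matches no sample record, was not used. Groups were taken from the sample titles.

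A gene entered the tests (18652 did) when its reads averaged 1 or more per library. Each comparison was fitted on its own 2 groups by the quasi-likelihood F test of edgeR 4.0.16 (R 4.3.3), two-sided, with TMM factors, robust estimation and Benjamini-Hochberg adjustment over all genes tested. The interaction was fitted on 15 libraries. A call required an adjusted p under 0.05 together with a change of 1 or more on the log2 scale, and standard errors are the log2 fold change over the root of F. CPM used TMM factors of all 19 libraries. Positions and exonic lengths are from GENCODE M21 and promoters from RefSeq. In simulated counts 200 genes were changed by a log2 fold of 2, as many up as down, with all others unchanged. Genes with few reads were not among those changed. The test found 89.5% of them for the resting populations, 91% for the inflamed populations and 94.5% for inflamed CCR1 against CCR2+ve. Of the calls 2.19%, 7.61% and 3.08% were false. In the real data the last comparison called 31.3% of genes, so these shares do not describe that setting, nor scarce genes such as Prss57.

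Replicate numbers are shared between groups. Over 7685 genes, deviations from the group means of same-numbered resting CCR1/2+ve and CCR2+ve libraries correlated at 0.31 to 0.61, and those of inflamed CCR1 and CCR2+ve libraries at 0.13 to 0.25, so the numbers pair these libraries, on this correlation alone. Alternatives were DESeq2 1.42.0, RLE and upper-quartile factors, no filter, filterByExpr, all 19 libraries in one fit, the block, each library left out, and, added after seeing the data, a covariate for replicates 1 and 2 against 3 and 4. The members and lists were chosen with earlier results of these data known. Named beside the 7 members are genes of the 4 lists called in any comparison, with Ctsc, Srgn, Cst7, Slpi, Cebpa, Gfi1, Myb and Irf8, the nearest tested neighbours of Elane, the 5 genes most like Elane, and markers.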

Additional observations from a re-analysis of the deposited data

Results flagged for a closer look

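Elane in the inflamed CCR1 libraries had 1 library apart from the others: replicate 4 was at 22049 CPM, and its gap to the next library was 0.832 of the range of the 4, just over the critical value of 0.829. Of 28 sets of 4 libraries examined, 7 genes in 4 groups, this was the only such set, where chance gives about 1 in 20. Leaving that library out, all 7 genes were still called in both comparisons with the inflamed CCR1 libraries.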

How the results depend on the processing

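Of 812 recomputed log2 fold changes of the 7 genes, 809 kept their direction, 22 lost a call and 19 gained one. The 3 that turned were all Serpinb1a under inflammation in CCR1/2+ve monocytes: −0.025 with the replicate block, and −0.018 and −0.31 without resting replicate 4 or inflamed replicate 2, from 0.021 in the reported test and a highest value of 0.18 without another library. For inflamed CCR1/2+ve against CCR2+ve monocytes 2 genes were called in the reported test, 4 with DESeq2, 1 with filterByExpr, 5 with the replicate block (the numbers do not pair these libraries, with correlations of −0.31 to 0.50), 5 with the added covariate, and 1 to 1 with any library left out. Inflamed against resting CCR2+ve monocytes gave 1 to 4 genes when each library was left out, from 3. The interaction gave 1 with DESeq2, 1 with the block (Ms4a3) and 0 to 1 with a library left out, from 0. Resting populations gave 5 to 7 with a library left out. The counts for inflamed against resting CCR1/2+ve monocytes (5) and for both inflamed CCR1 comparisons (7) held under every setting, except 6 in the former without the fold cutoff. Where the resting or the inflamed CCR1 numbers pair the libraries, the block changed no call but that of Serpinb1a in the resting populations. Over all tested genes, calls for the inflamed populations numbered 27 in the reported test, 107 with DESeq2, 53 without the filter and 53 with all 19 libraries in one fit, 80 with the block, 81 with the covariate and 15 to 42 with a library left out. For the interaction they numbered 40, then 152 with DESeq2, 82 with all libraries, 77 with the block, 74 with the covariate and 0 to 104 with a library left out, and for the resting populations 792, with 518 without CCR2+ve replicate 4. Without the fold cutoff calls rose to 3149 for the resting populations, 74 for the interaction, 8921 and 8586 (from 5327 and 5320) under inflammation in CCR2+ve and CCR1/2+ve monocytes, and 8972 and 8061 (from 5830 and 5172) for inflamed CCR1 against CCR2+ve and CCR1/2+ve. The causes were not tested. Prss57, with 8 to 24 reads per inflamed CCR2+ve library, is the member that depth limits most.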

Other observations

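Within the inflamed CCR1/2+ve and CCR2+ve groups, libraries of replicates 1 and 2 held more of most of these transcripts than replicates 3 and 4, a split that the labels give only as replicate numbers. In inflamed CCR2+ve monocytes Mpo was at 52.1 and 62.7 CPM in replicates 1 and 2 and at 25.8 and 27.1 CPM in replicates 3 and 4, and Serpinb1a at 183 and 179.7 CPM against 98.1 and 91.4 CPM. Fcnb did not follow it, at 73.7 and 56.5 CPM against 64.2 and 78.2 CPM. In inflamed CCR1/2+ve monocytes replicate 2, the only library of the first 2 numbers, was the highest of 3 for Mpo, Elane, Prtn3, Prss57, Ms4a3 and Serpinb1a and the lowest for Fcnb. The summed proliferation genes were 4605 CPM in that library against 4041 and 3968 CPM, and 4242 and 3215 CPM in inflamed CCR2+ve replicates 1 and 2 against 2576 and 2884 CPM in replicates 3 and 4. The split was not confined to inflamed mice. In resting CCR1/2+ve libraries Mpo, Elane, Prtn3, Prss57 and Ms4a3 were also higher in replicates 1 and 2, and Fcnb and Serpinb1a were not. There Mpo was at 1706 and 3084 CPM against 1289 and 1227 CPM. The summed proliferation genes went the other way in that group, at 4120 and 4495 CPM against 4832 and 5198 CPM. In resting CCR2+ve libraries Mpo, Prss57 and Ms4a3 were split likewise. Whether these are connected was not tested.

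Over the 15 libraries without inflamed CCR1, the genes outside the 7 most like Elane were Ticrr and Ccne2, which act in DNA replication (both r 0.96), the histone methyltransferase gene Nsd2 (0.96), the glutathione transferase gene Mgst2 (0.96) and S100a8 (0.95), a calcium-binding protein of neutrophils and monocytes. Ccne2 had means of 108 CPM in resting CCR1/2+ve, 51.3 CPM in resting CCR2+ve, 56.9 CPM in inflamed CCR1/2+ve and 32.2 CPM in inflamed CCR2+ve monocytes. These r values describe libraries of 4 groups and carry no test.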
